A study of Homo sapiens with 10 samples.

Results

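The genes described here encode BTB-domain proteins named for the KLHL (Kelch-like), BTBD (BTB domain), KBTBD (Kelch repeat and BTB domain) and KCTD (potassium channel tetramerisation domain) families. These families were chosen with earlier results of these data known. Their members were chosen by symbol alone: every gene whose symbol on the array platform begins with 1 of those 4 names followed by a digit. The choice gave 73 of the 18404 genes with a probe set of their own, namely 36 KLHL, 19 KCTD, 9 BTBD and 9 KBTBD genes. KCTD21-AS1, an antisense RNA, is counted among the 19 KCTD genes because its symbol follows the rule. KCTD14 and KLHL23 shared their probe sets with other symbols and were not used here.

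Many BTB proteins are the substrate adaptors of CUL3, the cullin scaffold of a ubiquitin ligase. The BTB domain docks on CUL3, and a second domain, which is the Kelch propeller in the KLHL and KBTBD proteins, holds the protein to be ubiquitinated. The KCTD proteins carry a related BTB domain that forms rings, and some of them act on receptors or transcription factors without CUL3. KLHL24 is best known from skin, where it controls keratin 14 turnover and where mutations that remove its start codon cause a blistering disease. BTBD1 and its close relative BTBD2 were described as binding partners of DNA topoisomerase I.

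RNA came from HEK-293, a line made from human embryonic kidney that also expresses neuronal genes, 48 h after transfection of a small interfering RNA (siRNA) with RNAiMax, and was measured on Affymetrix arrays. The 5 groups held 2 arrays each. LOC440173 siRNA 1 and LOC440173 siRNA 2, both at 10 nM, target the same long non-coding RNA and were set against a control siRNA at 10 nM. The PAXIP1-AS1 siRNA at 100 nM targets another long non-coding RNA and was set against a control siRNA at 100 nM. All groups were transfected cells of 1 line, there was no untransfected group, and PAXIP1-AS1 was targeted by a single siRNA. The titles call the arrays of a group biological replicates, but no label says whether they came from separate cultures, so the p-values measure the spread between these arrays only.

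LOC440173, listed as LINC02893, had log2 levels of 7.72 and 7.43 with siRNA 1, 6.71 and 6.59 with siRNA 2, and 8.48 and 8.60 in the 10 nM control. Both siRNAs lay below the control on each array, at 51.4% and 27% of it (adjusted p = 0.000305 and 1.38e-05). PAXIP1-AS1 had no probe set of its own among those listed, so its level was not analysed here, and the neighbouring gene PAXIP1 had a log2 difference of 0.02 with its siRNA (adjusted p = 0.919). Of the HEK-293 markers, the probe sets read 9.07 to 10.3 for NEFL, 9.4 to 11.37 for NEFM, 11.06 to 11.43 for VIM and 6.69 to 6.97 for PAX2 over the 10 arrays. The neurofilament genes moved with the siRNAs, NEFL by -1.07 with LOC440173 siRNA 1, -0.51 with siRNA 2 and -1.13 with the PAXIP1-AS1 siRNA, and NEFM by -0.77, 1.11 and -0.52 in the same order. VIM fell by 0.31 with siRNA 2. The 9 markers of liver, blood, skin, endothelium and muscle read between 3.52, for PTPRC, and 8.05, for ACTA1. Signals of different probe sets and an unknown background do not show from these values which markers are present or absent. Among the 9, PECAM1 was 0.36 higher with siRNA 1. The part of these shifts in the results below was not tested.

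All values below are levels or differences on the log2 scale, and a level cannot be compared between genes because each probe set responds differently. A gene is named called, or said to have risen or fallen, where limma's test gave an adjusted p below 0.05 over all 18404 genes. With few arrays this test rests on a spread shared by the 5 groups, and an exact permutation test of 2 arrays against 2 cannot go below p = 0.333. In RNA from whole cultures, fewer cells that express a gene and less RNA per cell cannot be told apart. The comparisons of the LOC440173 siRNAs with the control share the same control arrays, so their values are given side by side.

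The response of the family to the LOC440173 siRNAs was mixed in direction and close in extent to that of the array as a whole. With siRNA 1, 21 of the 73 members were called, 9 higher and 12 lower. That is 28.8% of the members beside 28.8% of all genes, of which 12.1% were higher and 16.7% lower. With siRNA 2, 27 were called, 11 higher and 16 lower, or 37% beside 30% of all genes (12.5% higher, 17.4% lower). Between siRNA 2 and siRNA 1, 32 differed, 15 higher and 17 lower, or 43.8% beside 37.1% of all genes (18.2% higher, 19% lower). With the PAXIP1-AS1 siRNA, 5 were called, 2 higher and 3 lower, or 6.85% beside 4.62% of all genes (2.86% higher, 1.76% lower). Between the 100 nM and the 10 nM control 0 were called, as for all genes (0%). The median log2 difference over the members was 0.05, 0.02, -0.04 and -0.01 in the first 4 comparisons and 0.05, 0.01, -0.05 and -0.01 over all genes.

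**Figure D1:**
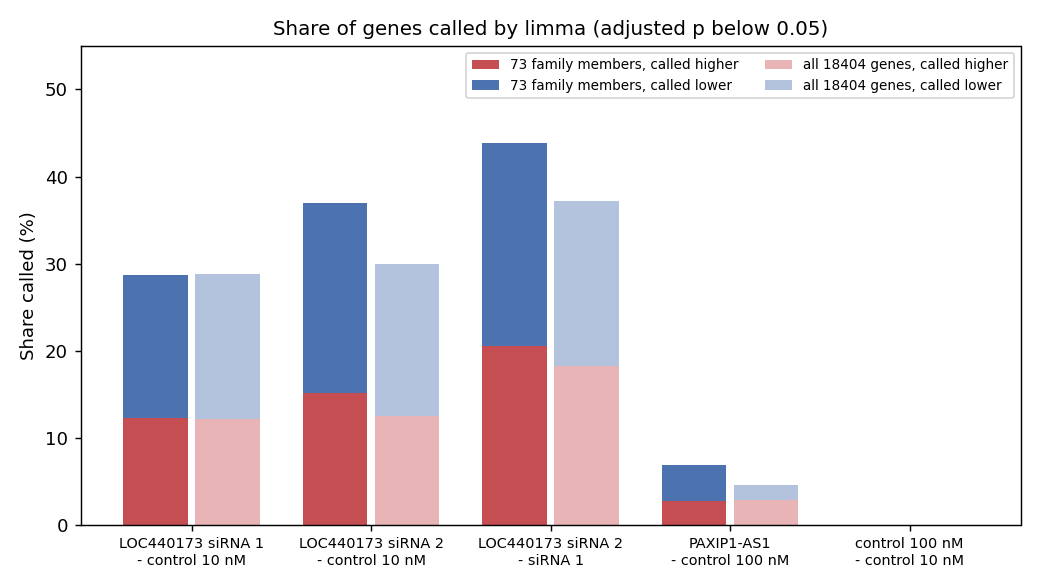
Share of genes called by limma in 5 comparisons, in percent, for the 73 family members (dark bars) and for all 18404 genes (pale bars), split into called higher (red) and called lower (blue). The shares of members lie near those of all genes, 28.8% beside 28.8% for LOC440173 siRNA 1 and 6.85% beside 4.62% for PAXIP1-AS1.

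The extent of the response differed with signal level among the members as it did among all genes. The highest group mean reached 7.66 in 44 members and stayed below it in 29. That cutoff is the median over all genes of the mean signal over all arrays. It is not the median of the highest group mean, which reached 7.66 in 9706 genes and stayed below it in 8698. Of the 44 brighter members, 20 were called with siRNA 1 (45.5%, beside 43.8% of all genes that bright) and 23 with siRNA 2 (52.3%, beside 47%). Of the 29 dimmer members, 1 was called with siRNA 1 (3.45%, beside 12.1%) and 4 with siRNA 2 (13.8%, beside 10.9%). Most changes were small: only 5 members with siRNA 1 and 6 with siRNA 2 were called with a change of at least 1.5-fold (6.85% and 8.22%, beside 5.67% and 6.63% of all genes). The range of the 5 group means had a median of 0.30 over the members and its largest value, 2.23, in BTBD1. By subfamily, siRNA 1 called 7 KLHL, 8 KCTD, 4 BTBD and 2 KBTBD genes, or 19.4%, 42.1%, 44.4% and 22.2% beside 28.8% of all genes. In the same order siRNA 2 called 12, 8, 4 and 3, or 33.3%, 42.1%, 44.4% and 33.3% beside 30%. The PAXIP1-AS1 siRNA called 4, 0, 1 and 0, or 11.1%, 0%, 11.1% and 0% beside 4.62%. The subfamilies were not split by signal level, and its part in these shares was not tested.

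The probe sets at the upper end of mean signal over the 10 arrays were those of BTBD1 (10.3), BTBD2 (10.23), KLHL9 (10.13), BTBD10 (9.99) and BTBD3 (9.82). At the lower end stood those of KLHL4 (3.64), KLHL1 (4.52), KLHL10 (4.99), KBTBD12 (5.11) and KBTBD3 (5.21). These are signals of different probe sets, given to show the span of the measurement, and they do not order the genes by RNA amount.

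KLHL24 was higher with both LOC440173 siRNAs. Its levels were 9.73 and 9.62 with siRNA 1, 9.28 and 9.26 with siRNA 2, and 8.33 and 8.54 in the 10 nM control. All 4 arrays of the LOC440173 siRNAs lay above both control arrays, and the siRNA 1 arrays lay above the siRNA 2 arrays. The rise was 1.24 with siRNA 1 (SE 0.11, adjusted p = 0.000134, 2.36-fold) and 0.83 with siRNA 2 (SE 0.11, adjusted p = 0.000804, 1.78-fold), and both held under every alternative that was run. The arrays of the PAXIP1-AS1 siRNA read 8.51 and 8.66, against 8.04 and 8.31 for the 100 nM control, without overlap. That difference of 0.41 (95% interval 0.16 to 0.66) missed the threshold, with an adjusted p of 0.08, and passed it under 4 of the alternatives. The 100 nM control was 0.26 below the 10 nM control, and this was not called (adjusted p = 1, unadjusted p = 0.0431).

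BTBD1 went in opposite directions with the LOC440173 siRNAs. Its levels were 8.82 and 8.79 with siRNA 1, 11.01 and 11.05 with siRNA 2, and 10.41 and 10.52 in the 10 nM control. No arrays of these 3 groups overlapped, with siRNA 1 far below and siRNA 2 above the control. BTBD1 fell by 1.67 with siRNA 1 (SE 0.057, adjusted p = 4.14e-06), to 31.5% of the control, and rose by 0.56 with siRNA 2 (SE 0.057, adjusted p = 0.000226, 1.48-fold). With the PAXIP1-AS1 siRNA the levels were 10.75 and 10.69, against 10.45 and 10.49 in the 100 nM control, a difference of 0.25 (95% interval 0.12 to 0.38) whose adjusted p of 0.0517 was just over the threshold. BTBD2, the close relative, had 10.18 and 10.22 with siRNA 1, 9.35 and 9.37 with siRNA 2, and 10.76 and 10.60 in the 10 nM control. It was lower on every array of both siRNAs, by 0.48 with siRNA 1 (SE 0.062, adjusted p = 0.000869) and by 1.33 with siRNA 2 (SE 0.062, adjusted p = 8.92e-06), and siRNA 2 left 39.9% of the control level.

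BTBD3, which directs dendrites toward active axons in the mouse cortex, read 10.21 and 10.22 with siRNA 1, 8.86 and 8.92 with siRNA 2, and 9.97 and 10.03 in the 10 nM control. The siRNA 2 arrays stood apart below all others, with a fall of 1.11 (SE 0.064, adjusted p = 1.99e-05, 46.2% of the control). The rise of 0.21 with siRNA 1 was called at an adjusted p of 0.041. BTBD6, whose zebrafish counterpart is needed for neuron formation, read 8.50 and 8.65 with siRNA 1 and 8.82 on both arrays of the 10 nM control, a fall of 0.25 (adjusted p = 0.0259). BTBD10 read 10.22 and 10.14 with siRNA 2, against 9.99 and 9.94 in the control, a rise of 0.21 (adjusted p = 0.0405). The small calls of this subfamily were not stable: that of BTBD3 with siRNA 1 was lost without any single array of that siRNA, of siRNA 2 or of either control, that of BTBD6 without siRNA 1 replicate 1 or either 10 nM control array, and that of BTBD10 without any array of the 10 nM control, either LOC440173 siRNA or the PAXIP1-AS1 siRNA (adjusted p up to 0.149, 0.162 and 0.182).

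**Figure D2:**
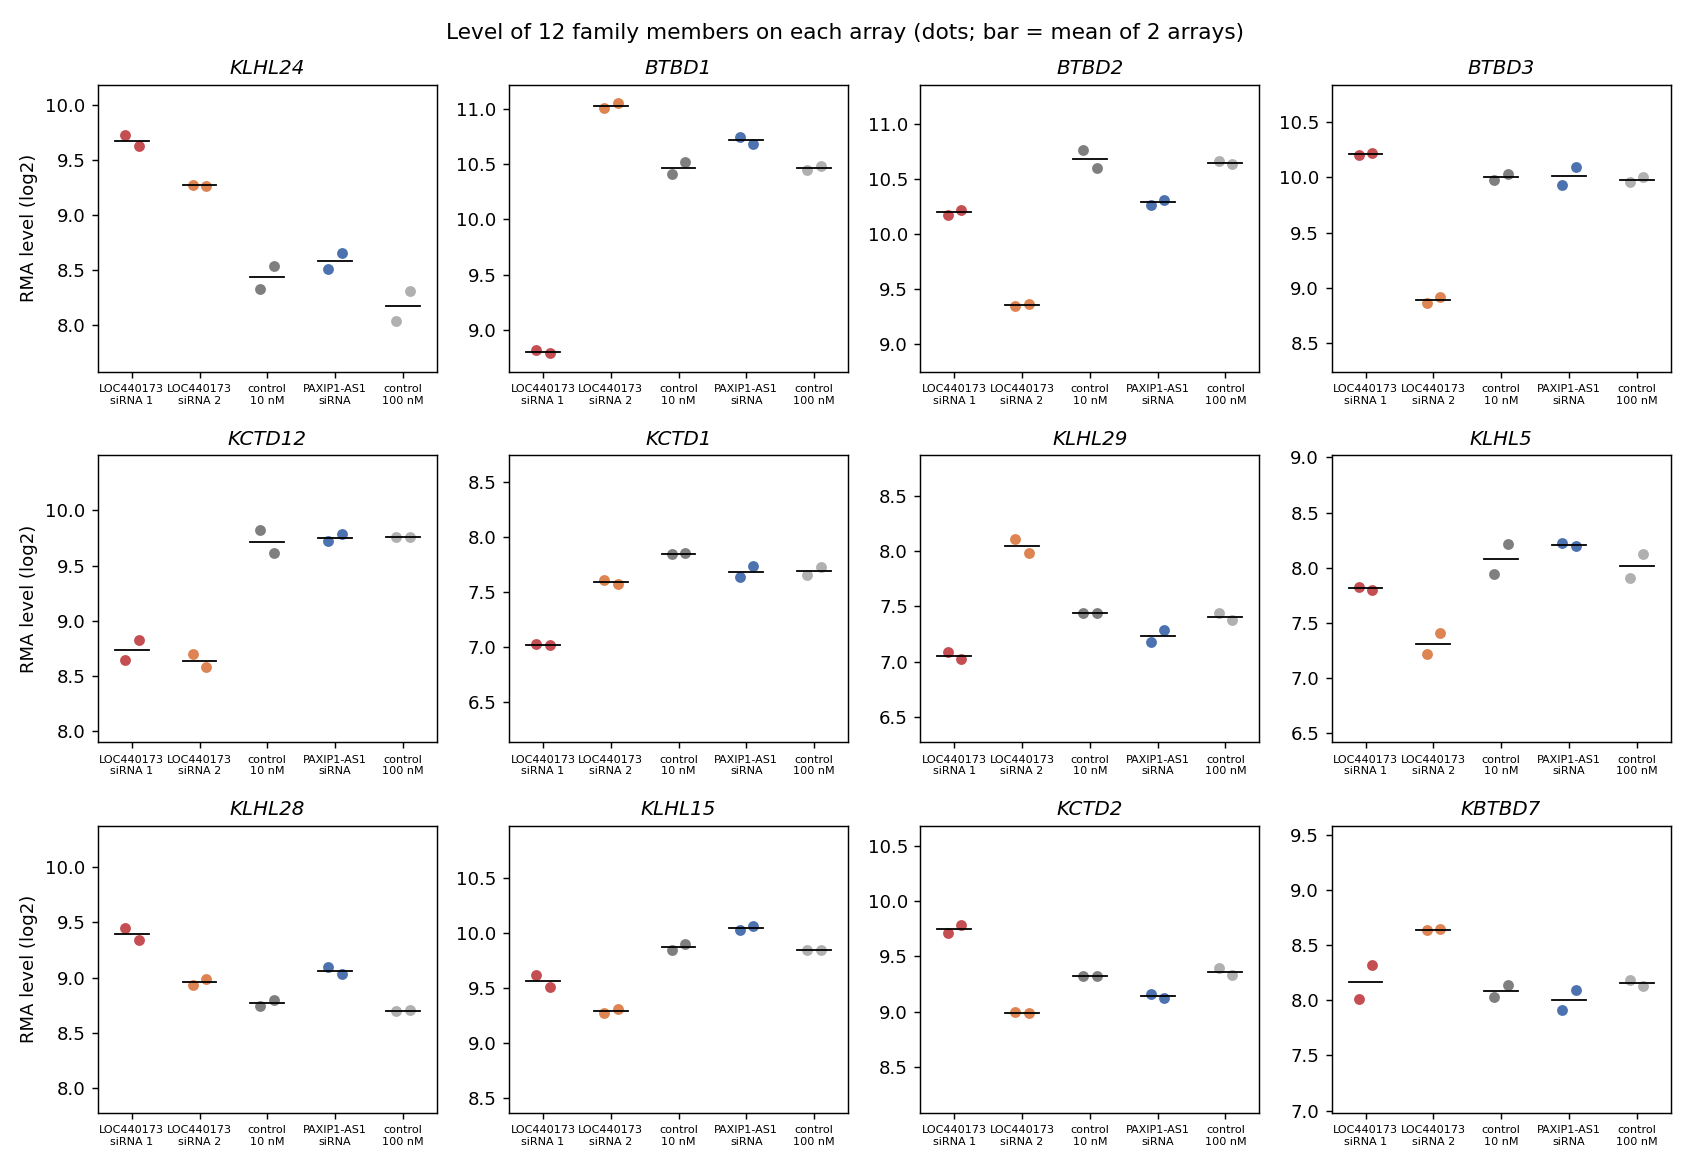
Log2 level of selected members on each array, 1 panel a gene, with a dot for each of the 2 arrays of a group and a line at the group mean, each panel spanning the same number of log2 units. The KLHL24 dots of both LOC440173 siRNAs lie above their control, and the BTBD1 dots lie at 8.82 and 8.79 with siRNA 1 and at 11.01 and 11.05 with siRNA 2.

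The promoters of the 4 most changed members with an entry in the RefSeq promoter table are shown because these genes carry the widest differences described here, each over 1 log2 unit with at least 1 LOC440173 siRNA. Each runs 5′ to 3′ on the gene's strand, from 250 bases before to 50 bases after the annotated start (RefSeq, GRCh38.p14), and capitals mark matches to the motifs searched.
KLHL24, chr3:183635373-183635672, plus strand: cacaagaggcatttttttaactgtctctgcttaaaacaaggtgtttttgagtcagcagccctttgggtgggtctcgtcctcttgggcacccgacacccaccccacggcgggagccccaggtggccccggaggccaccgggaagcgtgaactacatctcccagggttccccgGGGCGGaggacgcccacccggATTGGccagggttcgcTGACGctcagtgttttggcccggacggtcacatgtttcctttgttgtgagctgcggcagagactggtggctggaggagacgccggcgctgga
BTBD1, chr15:83067203-83067502, minus strand: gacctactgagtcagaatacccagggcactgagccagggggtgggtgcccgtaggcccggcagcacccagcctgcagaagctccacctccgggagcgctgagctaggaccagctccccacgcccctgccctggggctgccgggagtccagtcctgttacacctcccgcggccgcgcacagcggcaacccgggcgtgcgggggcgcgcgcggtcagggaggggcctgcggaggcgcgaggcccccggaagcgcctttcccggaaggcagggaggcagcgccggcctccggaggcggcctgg
BTBD3, chr20:11890567-11890866, plus strand: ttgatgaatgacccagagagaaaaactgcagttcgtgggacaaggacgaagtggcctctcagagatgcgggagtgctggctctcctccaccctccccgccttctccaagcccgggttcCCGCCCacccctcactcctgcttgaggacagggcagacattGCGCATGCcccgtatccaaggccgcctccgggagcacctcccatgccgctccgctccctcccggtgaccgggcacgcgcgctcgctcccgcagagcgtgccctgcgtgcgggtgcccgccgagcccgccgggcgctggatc
KCTD12, chr13:76886356-76886655, minus strand: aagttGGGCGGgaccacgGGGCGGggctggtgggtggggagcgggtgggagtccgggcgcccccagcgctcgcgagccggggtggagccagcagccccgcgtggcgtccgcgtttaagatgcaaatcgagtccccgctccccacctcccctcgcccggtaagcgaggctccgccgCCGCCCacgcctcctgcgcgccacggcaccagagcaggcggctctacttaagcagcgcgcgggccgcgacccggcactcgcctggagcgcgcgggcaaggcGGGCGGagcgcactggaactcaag
The KLHL24 window holds a GC box, a CCAAT box read on the opposite strand and the core of a cAMP response element (CRE). The BTBD1 window holds no match to any of the motifs searched, which says only that these letters are absent from this window. The BTBD3 window holds a GC box and an NRF1 core, both on the opposite strand, and the KCTD12 window holds 4 GC boxes. The windows are 62%, 74.7%, 68.3% and 75% G and C, with 19, 28, 27 and 41 CpG dinucleotides in the same order.

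**Figure D3:**
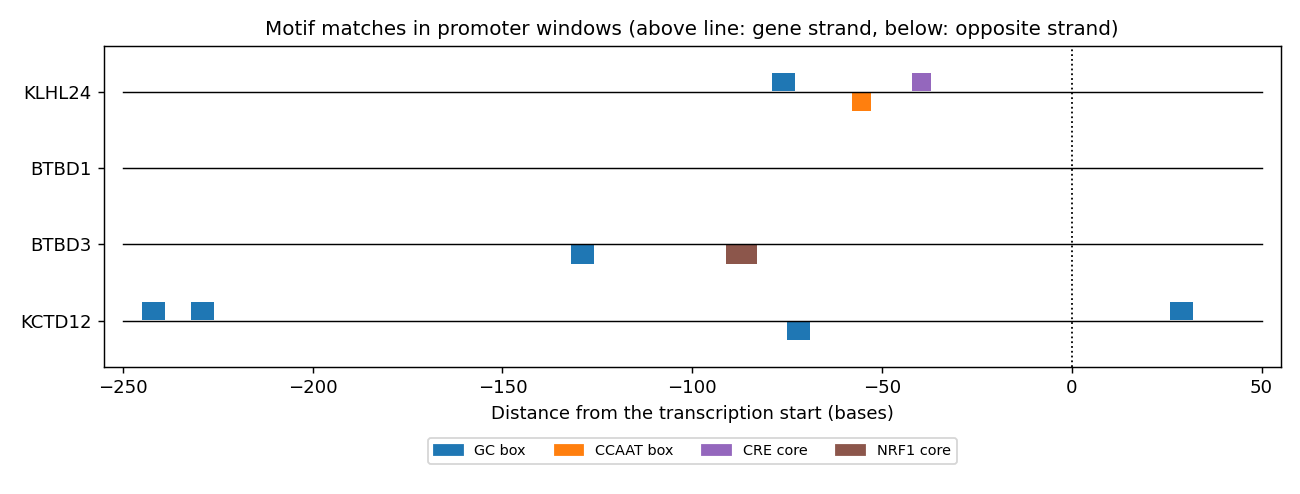
Position of the motif matches in the promoter windows of KLHL24, BTBD1, BTBD3 and KCTD12, in bases from the annotated start site, with 1 row a gene and 1 colour a motif. BTBD1 has no match and KCTD12 has 4 GC boxes.

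Of the 73 members, 60 had a promoter in that table, which held 27305 in all. The motifs were searched on both strands and a single base could belong to more than 1 motif. The GC box GGGCGG was present in 65% of the members' promoters and in 44.6% of all promoters, the CRE core TGACG in 38.3% and 25%, CCAAT in 26.7% and 35.7%, and the TATA box TATAAA in 3.33% and 12%. CACGTG (E-box), GCATGCGC (NRF1 core), TGTTTAC (forkhead site) and CCGGAAGT (ETS core) were present in 5%, 5%, 1.67% and 3.33% of the members' promoters, beside 7.43%, 3.27%, 3.41% and 4.44% of all. The members' promoters had a median of 66.2% G and C and 27 CpG, beside 63% and 23 for the 14228 promoters of genes tested here and 58.3% and 14 for all 27305, the set behind the motif shares. The motif shares were not adjusted for this difference in base composition. Among the 29 of these members called with at least 1 siRNA against its control the medians were 68.7% and 31, and among the other 31 they were 61% and 22. The same measures split by signal level, at 69.3% and 31 in the 37 members at or above the median level and 60.3% and 9 in the 23 below it, and the part of signal level in the first split was not tested.

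Among the other KLHL adaptors, KLHL28 rose with every siRNA that was set against a control. Its levels were 9.45 and 9.34 with LOC440173 siRNA 1, 8.93 and 8.98 with siRNA 2, and 8.74 and 8.80 in the 10 nM control. The rise was 0.63 with siRNA 1 (SE 0.059, adjusted p = 0.000185, 1.55-fold) and 0.19 with siRNA 2 (SE 0.059, adjusted p = 0.0437). Its 4 arrays lay above the control arrays with no overlap, but the siRNA 2 call was lost without any array of siRNA 2, of either control or of the PAXIP1-AS1 siRNA (adjusted p up to 0.171). KLHL12, an adaptor for the COPII coat protein SEC31 in collagen secretion and for Dishevelled in Wnt signalling, read 9.99 and 9.88 with siRNA 1, 9.56 and 9.56 with siRNA 2, and 9.46 and 9.50 in the control. It rose by 0.46 with siRNA 1 (SE 0.063, adjusted p = 0.0012) and differed by 0.08 with siRNA 2 (95% interval -0.06 to 0.23, adjusted p = 0.41). KLHL20, which joins KLHL12 in the list of secretion, Wnt and death kinase adaptors and targets the death kinase DAPK1, differed by 0.03 and -0.13 (adjusted p = 0.722 and 0.109).

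KLHL29 moved in opposite directions. It read 7.08 and 7.02 with siRNA 1, 8.12 and 7.98 with siRNA 2, and 7.44 and 7.44 in the 10 nM control, so that the 3 groups were fully apart. It fell by 0.39 with siRNA 1 (SE 0.065, adjusted p = 0.00313) and rose by 0.61 with siRNA 2 (SE 0.065, adjusted p = 0.000302). KLHL15, which targets a regulatory subunit of the phosphatase PP2A, read 9.62 and 9.51 with siRNA 1, 9.27 and 9.31 with siRNA 2, and 9.84 and 9.90 in the control. It was lower on every array of both siRNAs, by 0.30 (adjusted p = 0.00461) and 0.58 (adjusted p = 0.000183).

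KLHL5 had 7.83 and 7.80 with siRNA 1, 7.22 and 7.41 with siRNA 2, and 7.95 and 8.22 in the control. The fall of 0.77 with siRNA 2 was called (SE 0.11, adjusted p = 0.00122), and the difference of -0.27 with siRNA 1 was not (adjusted p = 0.107). KLHL11, known as an autoantigen in a paraneoplastic encephalitis, read 9.59 and 9.56 with siRNA 1, 9.99 and 9.92 with siRNA 2, and 9.89 and 9.99 in the control. Only siRNA 1 stood below the control, with a fall of 0.37 (adjusted p = 0.00297).

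The 6 adaptors of mitotic kinases and spindle proteins all reached a level of 7.66. Of all genes that bright, 43.8% were called with siRNA 1 and 47% with siRNA 2. Of the 6 adaptors, siRNA 1 called 1, lower (16.7%, beside 28.8% of all genes), and siRNA 2 called 3, 1 higher and 2 lower (50%, beside 30%). With siRNA 1 their differences ran from -0.38 to -0.01 with a median of -0.13 (0.05 over all genes), and with siRNA 2 from -0.42 to 0.39 with a median of -0.09 (0.01 over all genes). KLHL21, which with KLHL9 and KLHL13 moves the kinase Aurora B in mitosis, read 8.18 and 8.08 with siRNA 2, against 7.77 and 7.72 in the 10 nM control, a rise of 0.39 (adjusted p = 0.0018). KLHL9 differed by -0.01 and -0.04 with siRNA 1 and siRNA 2 (adjusted p = 0.927 and 0.644), and KLHL13 by -0.10 and 0.18 (adjusted p = 0.277 and 0.0779). KLHL22, which removes the kinase PLK1 from kinetochores, read 7.91 and 7.82 with siRNA 2, against 8.29 and 8.29 in the control, a fall of 0.42 (adjusted p = 0.000504). KLHL18, an adaptor for Aurora A, fell by 0.29 with siRNA 2 (adjusted p = 0.00357), a call lost (adjusted p = 0.0665) when the other groups were left out of the fit. With siRNA 1 the KLHL18 difference was -0.16, just outside the threshold (adjusted p = 0.0514). KLHL42, an adaptor for the microtubule-severing protein katanin, read 8.03 and 7.97 with siRNA 1, against 8.43 and 8.34 in the control, a fall of 0.38 (adjusted p = 0.00522).

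KLHL2, an adaptor for the WNK kinases of salt transport, read 7.29 and 7.41 with siRNA 2, against 7.11 and 7.13 in the control, a rise of 0.23 (adjusted p = 0.0233). Its partner in that role, KLHL3, had a difference of 0.39 with siRNA 2 that was not called (95% interval -0.03 to 0.80, adjusted p = 0.16). KLHL8 and KLHL14 were called with siRNA 2, KLHL8 higher by 0.31 (adjusted p = 0.0276) and KLHL14 lower by 0.33 (adjusted p = 0.0095). KLHL7, mutated in a form of retinitis pigmentosa, lay just outside the threshold with siRNA 2 (0.24, adjusted p = 0.0513). These calls depended on single arrays: KLHL2 was lost without siRNA 2 replicate 2 or either 10 nM control array, KLHL8 without either siRNA 2 array or control replicate 1, and KLHL14 without siRNA 2 replicate 2 or control replicate 2 (adjusted p up to 0.13, 0.13 and 0.0588).

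All 8 KLHL and KBTBD genes known from striated muscle, among them KLHL40, KLHL41 and KBTBD13 of nemaline myopathy, stayed below a level of 7.66. Of all genes that dim, 12.1% were called with siRNA 1 and 10.9% with siRNA 2. The muscle genes gave 0 calls with siRNA 1 and 1 with siRNA 2 (0% and 12.5%, beside 28.8% and 30% of all genes). That call was KLHL31, 0.19 higher with siRNA 2 (adjusted p = 0.0426). Apart from the added 1.5-fold minimum, it was lost under 12 of 15 alternatives (adjusted p up to 0.2, with an intensity trend and robust prior). Among them were leaving out any array of either LOC440173 siRNA, of the 100 nM control or of the PAXIP1-AS1 siRNA, or 10 nM control replicate 1.

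KCTD12, an auxiliary subunit of GABA-B receptors, fell with both LOC440173 siRNAs. It read 8.65 and 8.83 with siRNA 1, 8.70 and 8.58 with siRNA 2, and 9.82 and 9.61 in the 10 nM control. The 4 arrays of the siRNAs lay below both control arrays, and the siRNA 1 and siRNA 2 arrays overlapped each other. The fall was 0.98 with siRNA 1 (SE 0.09, adjusted p = 0.000166, 50.7% of the control) and 1.08 with siRNA 2 (SE 0.09, adjusted p = 9.52e-05, 47.4%), and the direct difference was -0.10 (95% interval -0.30 to 0.11, adjusted p = 0.454). KCTD16, another GABA-B subunit, was dim and higher with both: it read 6.02 and 6.11 with siRNA 1, 6.16 and 6.07 with siRNA 2, and 5.78 and 5.70 in the control. Its rises were 0.33 (adjusted p = 0.00988) and 0.38 (adjusted p = 0.00475), and leaving out siRNA 1 replicate 2 (adjusted p = 0.0715) or control replicate 2 (adjusted p = 0.0548) ended the first call. KCTD8, the third of these subunits, had a difference of 0.27 with siRNA 1 that missed the threshold (adjusted p = 0.0642).

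KCTD1, an inhibitor of the transcription factor AP-2, read 7.03 and 7.02 with siRNA 1, 7.62 and 7.57 with siRNA 2, and 7.84 and 7.86 in the control. It was lower on every array of both, by 0.83 with siRNA 1 (SE 0.054, adjusted p = 3.99e-05, 56.4% of the control) and by 0.26 with siRNA 2 (adjusted p = 0.00843), the second call lost (adjusted p = 0.0737) when the other groups were left out of the fit. KCTD15, its relative, was not called with either (-0.22 and 0.04, adjusted p = 0.0752 and 0.754).

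KCTD2, related to KCTD5, moved in opposite directions. It read 9.71 and 9.78 with siRNA 1, 8.99 and 8.98 with siRNA 2, and 9.32 and 9.33 in the control, with all 3 groups apart. It rose by 0.42 with siRNA 1 (SE 0.051, adjusted p = 0.000631) and fell by 0.33 with siRNA 2 (adjusted p = 0.00173). KCTD5, which binds G protein beta gamma subunits, read 8.95 and 9.07 with siRNA 1, against 9.35 and 9.35 in the control, a fall of 0.34 (adjusted p = 0.00311). KCTD17, the third of that list, was not called with siRNA 1 or siRNA 2 (0.09 and -0.14, adjusted p = 0.435 and 0.244).

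KCTD13, an adaptor for the GTPase RhoA, read 9.40 and 9.37 with siRNA 1, against 9.09 and 9.04 in the control, a rise of 0.32 (adjusted p = 0.00183). KCTD10, its relative, fell by 0.27 with siRNA 2 (adjusted p = 0.0126). Of the hedgehog pathway inhibitors, KCTD21 read 7.53 and 7.56 with siRNA 2, against 7.85 and 7.87 in the control, a fall of 0.32 (adjusted p = 0.00452) on arrays that did not overlap. KCTD6 rose by 0.21 with siRNA 1 (adjusted p = 0.0322), and KCTD11 of that list had no probe set of its own. KCTD20 fell by 0.37 with siRNA 2 (adjusted p = 0.00157), KCTD7, mutated in a progressive myoclonic epilepsy, fell by 0.31 with siRNA 2 (adjusted p = 0.0115), and KCTD9 fell by 0.28 with siRNA 1 (adjusted p = 0.0212). The calls of KCTD10, KCTD7, KCTD6 and KCTD9 were lost when the other groups were left out of the fit. They were also lost without 10 nM control replicate 2 and without 1 array of the siRNA concerned, which was siRNA 2 replicate 1 for KCTD10 and KCTD7, either siRNA 1 array or 10 nM control replicate 1 for KCTD6 and siRNA 1 replicate 1 for KCTD9 (adjusted p up to 0.0744, 0.0596, 0.166 and 0.137).

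Of the 9 KBTBD genes, KBTBD8 had the largest difference from the control with siRNA 1 and KBTBD7 with siRNA 2. KBTBD7, which with KBTBD6 targets the RAC1 activator TIAM1, read 8.63 and 8.65 with siRNA 2, against 8.03 and 8.13 in the control, a rise of 0.56 (SE 0.1, adjusted p = 0.00479, 1.47-fold). KBTBD6 differed by 0.08 there (95% interval -0.07 to 0.23, adjusted p = 0.429). KBTBD8, an adaptor in neural crest specification, read 7.90 and 7.81 with siRNA 1, 7.91 and 7.97 with siRNA 2, and 8.17 and 8.37 in the control. All 4 siRNA arrays lay below the control arrays, with falls of 0.41 (adjusted p = 0.00757) and 0.33 (adjusted p = 0.0185). KBTBD4, mutated in medulloblastoma, read 8.08 and 8.23 with siRNA 2, against 8.47 and 8.43 in the control, a fall of 0.30 (adjusted p = 0.0121), and had a difference of 0.20 with siRNA 1 that missed the threshold (adjusted p = 0.0652). KBTBD2, which limits the p85 alpha subunit of PI3 kinase in mice, rose by 0.21 with siRNA 1 at an adjusted p of 0.0491, the value closest below the threshold. KBTBD2 lost its call without siRNA 1 replicate 1 or 2, any siRNA 2, 100 nM control or PAXIP1-AS1 array, or 10 nM control replicate 1 (adjusted p up to 0.222). KBTBD8 lost it without siRNA 1 replicate 2 in the first comparison and without siRNA 2 replicate 1 or control replicate 2 in the second (adjusted p up to 0.057 and 0.0901), and KBTBD4 without siRNA 2 replicate 1 or control replicate 1 (up to 0.0705).

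**Figure D4:**
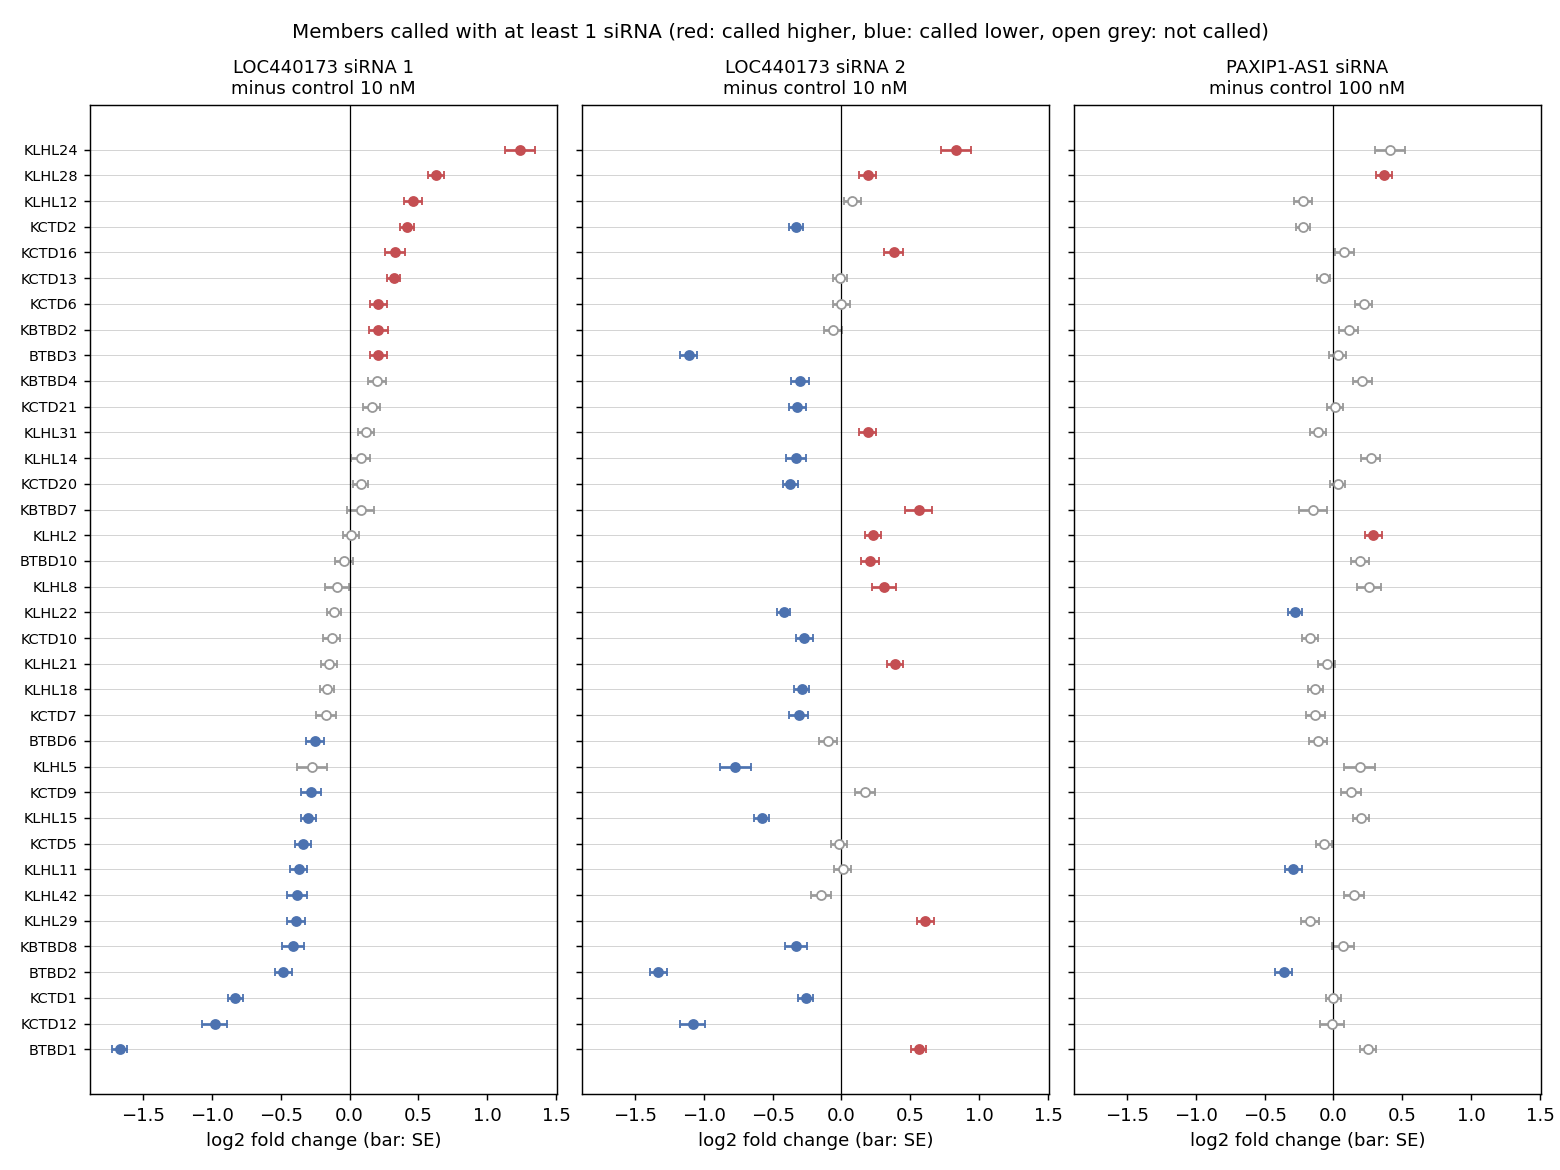
Log2 difference from the matched control for the members called with at least 1 siRNA, in panels for LOC440173 siRNA 1, LOC440173 siRNA 2 and the PAXIP1-AS1 siRNA, with bars of 1 SE. Red points were called higher, blue points lower, and open grey points were not called. BTBD1 lies at -1.67 with siRNA 1 and 0.56 with siRNA 2, KLHL24 at 1.24 and 0.83, and the PAXIP1-AS1 markers lie between -0.36 and 0.41.

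The direct comparison of the LOC440173 siRNAs uses no control array for its log2 differences. Its SE and p-values rest on the spread shared by the 5 groups, controls included. BTBD1 differed most of the 73, at 2.23 higher with siRNA 2 (SE 0.057, adjusted p = 9.31e-07, 4.69-fold). KLHL29 was 1.00 higher (adjusted p = 1.61e-05), followed by KCTD1 (0.57), KLHL21 (0.53), KBTBD7 (0.47), KCTD9 (0.45), KLHL8 (0.40), KLHL11 (0.38), KCTD5 (0.33) and KLHL13 (0.28). BTBD3 was 1.32 lower with siRNA 2 (SE 0.064, adjusted p = 4.73e-06), BTBD2 0.84 lower (adjusted p = 2.72e-05) and KCTD2 0.76 lower (adjusted p = 1.79e-05). Further falls were those of KBTBD4 and KLHL5 (both 0.50), KCTD21 (0.47), KCTD20 (0.45), KLHL28 (0.44), KLHL14 (0.42) and KLHL24 (0.40, adjusted p = 0.0194). At least 1.5-fold differences were called in 5 members (6.85%, beside 10.6% of all genes). Both hedgehog inhibitors measured, KCTD6 and KCTD21, were lower with siRNA 2, and both AP-2 inhibitors, KCTD1 and KCTD15, were higher. KLHL20, at 0.15 lower, had the adjusted p closest below the threshold (0.0481). The KLHL24 difference was lost without any 1 of the 4 arrays compared (adjusted p up to 0.112), as was that of KLHL42 (up to 0.162), and that of KLHL13 was lost without siRNA 1 replicate 2 or siRNA 2 replicate 1 (up to 0.0759). KCTD6 was lost without any of the 4 arrays (up to 0.151), KCTD15 without siRNA 1 replicate 2, siRNA 2 replicate 1 or either PAXIP1-AS1 array (up to 0.186), and KLHL20 without any of the 10 arrays in turn (up to 0.259).

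**Figure D5:**
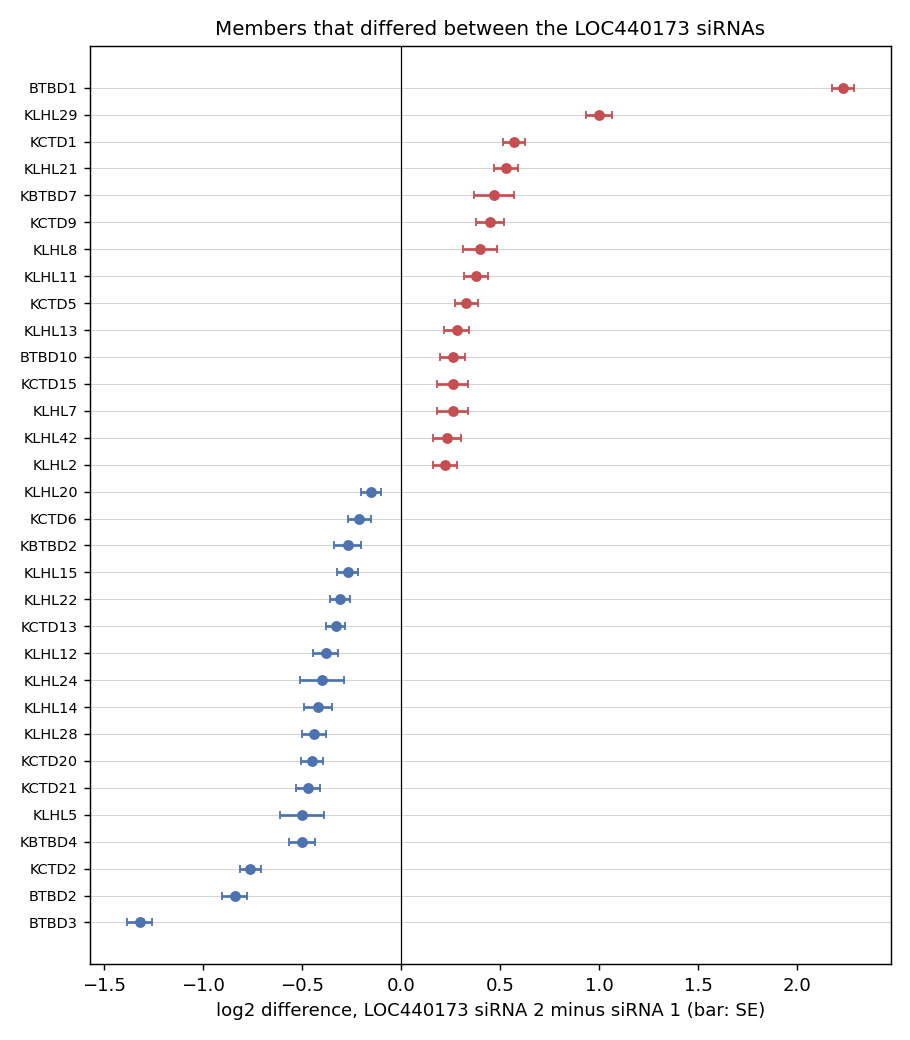
Log2 difference between LOC440173 siRNA 2 and siRNA 1 for the 32 members called, with bars of 1 SE, red where siRNA 2 was higher and blue where it was lower. The differences run from 2.23 in BTBD1 to -1.32 in BTBD3.

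The PAXIP1-AS1 siRNA changed few members, with 5 called. Of the 73 members, 0 were called with a change of at least 1.5-fold (0%, beside 0.609% of all genes). BTBD2 read 10.26 and 10.31 with the siRNA, against 10.66 and 10.63 in the 100 nM control, a fall of 0.36 (SE 0.062, adjusted p = 0.0195). KLHL28 read 9.10 and 9.03, against 8.70 and 8.70 in the control, a rise of 0.37 (SE 0.059, adjusted p = 0.0157). KLHL22 had 7.99 and 8.02 with the siRNA, against 8.28 and 8.28, a fall of 0.28 (adjusted p = 0.0234). KLHL11 had 9.64 and 9.54, against 9.86 and 9.88, a fall of 0.29 (adjusted p = 0.0413). KLHL2 had 7.36 and 7.33, against 7.02 and 7.10, a rise of 0.29 (adjusted p = 0.0397). In each of these genes the siRNA arrays did not overlap the control arrays. Just outside the threshold lay KCTD2 (-0.22, adjusted p = 0.0502), BTBD1 (above) and KLHL24 (0.41, adjusted p = 0.08). The 5 calls were lost without any 1 of the arrays of the PAXIP1-AS1 siRNA or the 100 nM control, where 0 members were called, and 2 were called without either array of LOC440173 siRNA 1.

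The control siRNA at 100 nM and at 10 nM gave 0 called members by limma (0% of all genes). Its unadjusted p was below 0.05 in 692 of all 18404 genes and in 5 of the 73 members. They were KCTD8 (0.30), KCTD1 and KCTD5 (both -0.16), KLHL24 (-0.26) and KCTD6 (-0.14).

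Subtracting the mean effect of the LOC440173 siRNAs from that of the PAXIP1-AS1 siRNA, each taken against its own control, gave a called difference in 13 members, 10 higher and 3 lower. These are 17.8% of the members beside 11.6% of all genes, of which 8.79% were higher and 2.78% lower. Of the 13, 5 differed by at least 1.5-fold (6.85% of the members, beside 3.39% of all genes). KCTD12 (1.02, adjusted p = 0.00213), BTBD1 (0.80, adjusted p = 0.00105) and KLHL5 (0.71, adjusted p = 0.019) had the largest positive differences, and KLHL24 the largest negative one (-0.63, adjusted p = 0.0296). For BTBD1 the LOC440173 mean joins effects of opposite sign. The KLHL24 difference was lost when any array of either LOC440173 siRNA or of the PAXIP1-AS1 siRNA, 10 nM control replicate 1 or 100 nM control replicate 2 was left out (adjusted p up to 0.114), and that of KLHL5 without either PAXIP1-AS1 array or 100 nM control replicate 1 (up to 0.0744).

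Other BTB genes and the shared parts of the ligase were counted as lists. Of 16 BTB genes without a family symbol 15 were measured, and 6 were called with siRNA 1 (3 higher, 3 lower), 6 with siRNA 2 (2 higher, 4 lower) and 0 with the PAXIP1-AS1 siRNA. The percentages were 40%, 40% and 0%, beside 28.8%, 30% and 4.62% of all genes. The list's median differences were -0.11, -0.05 and 0.06, beside 0.05, 0.01 and -0.01 over all genes. TNFAIP1, a RhoA adaptor related to KCTD10 and KCTD13, rose with siRNA 1 by 0.57 (adjusted p = 0.000234) and with siRNA 2 by 0.39 (adjusted p = 0.00139). RCBTB2 rose with siRNA 1 by 0.27 (adjusted p = 0.0265) and fell with siRNA 2 by 0.95 (adjusted p = 7.03e-05). SPOP, the adaptor mutated in prostate cancer, fell by 0.52 with siRNA 2 (adjusted p = 0.000524), and KEAP1, the sensor that holds NRF2 in check, was not called with any siRNA.

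The CUL3 machinery list had 22 of 25 genes measured. With siRNA 1, 7 were called (6 higher, 1 lower), with siRNA 2, 10 (5 higher, 5 lower), and with the PAXIP1-AS1 siRNA, 3, all higher. These are 31.8%, 45.5% and 13.6% of the list, beside 28.8%, 30% and 4.62% of all genes. All 22 reached a level of 7.66, and of all genes that bright 43.8%, 47% and 7.81% were called. The list's medians were 0.06, 0.04 and 0.06, beside 0.05, 0.01 and -0.01 over all genes. CUL3 itself differed by 0.09 with siRNA 1 (adjusted p = 0.211), rose by 0.18 with siRNA 2 (adjusted p = 0.0211) and differed by 0.06 with the PAXIP1-AS1 siRNA (adjusted p = 0.554). RBX1, its RING partner, was not called with any of them. Of the COP9 signalosome, which removes NEDD8 from cullins, COPS4 rose by 0.47, 0.40 and 0.32 with siRNA 1, siRNA 2 and the PAXIP1-AS1 siRNA (adjusted p = 0.0012, 0.00232 and 0.0355), COPS8 fell by 1.11 with siRNA 2 (adjusted p = 0.000127), and COPS7A fell by 0.47 with siRNA 1 (adjusted p = 0.000777). CAND1, which exchanges cullin adaptors, rose by 0.20, 0.23 and 0.38 in the same order (adjusted p = 0.0243, 0.0112 and 0.00825). The genes of this list and of the BTB list were not followed through the alternatives, so the stability of their calls is unknown.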

How the data were processed

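RNA from 10 samples in 5 groups of 2 was measured on Affymetrix arrays. The deposited values are log2 values, 1 per probe set and array, made by the authors with RMA, per the submitters' processing notes, which also name limma. The sources used here give no version of either tool, no array definition and no filter. The array holds 32321 probe sets: the platform annotation gives 19158 a single symbol and 1388 several, and lists no symbol for 11775. Array medians were 7.06 to 7.12. Scanner intensities were not used, so the level above background is unknown, and the number of arrays limits the precision.

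Each gene kept its brightest probe set by mean over the 10 arrays, which left 18404 genes. All 73 members had 1 probe set and matched RefSeq gene IDs (GRCh38.p14), with 0 symbols changed. All arrays entered 1 fit with limma 3.58.1 (R 4.3.3), with group means as coefficients and eBayes (5 residual and 2.87 prior degrees of freedom) gave 2-sided tests of 6 contrasts, adjusted by Benjamini-Hochberg over all genes, with a threshold of 0.05. SE is that of the fit. Promoter motifs were searched on both strands of RefSeq windows. The code was tested on simulated data.

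The members, gene lists and role groups were chosen with earlier results of these data known. The rule for named genes took up to 10 called members with the largest rises and 10 with the largest falls per main contrast, KLHL24 and BTBD1 always, the 5 members with the highest and the 5 with the lowest mean signal, the 3 members nearest the threshold on each side, the targets, and the role groups. Alternatives were averaged probe sets, a further quantile normalization, a filter on dim genes, a fit restricted to the groups compared, a robust prior with an intensity trend, the replicate number as a block, an added 1.5-fold minimum, and each array left out. Groups came from the labels.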

Additional observations from a re-analysis of the deposited data

Results flagged for a closer look

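With 2 arrays a group, no array could be tested as standing apart from its group. The results here are the 13 members in which the PAXIP1-AS1 effect differed from the mean LOC440173 effect by limma's test of the difference itself, each effect being taken against the control at its own dose.

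The difference, PAXIP1-AS1 effect minus mean LOC440173 effect, was positive in 10 members. It was 1.02 for KCTD12, 0.8 for BTBD1, 0.71 for KLHL5, 0.64 for KLHL15, 0.54 for both BTBD2 and KCTD1, 0.48 for BTBD3, 0.44 for KBTBD8, 0.41 for KLHL42 and 0.4 for KLHL14. It was negative in 3 members, at -0.63 for KLHL24, -0.49 for KLHL12 and -0.27 for KCTD2. For BTBD1, BTBD3 and KCTD2 the LOC440173 siRNAs moved the gene in opposite directions, so the mean is that of unlike effects. The siRNAs compared differ in target and dose, and these cannot be told apart. The following counts of alternatives leave out the added 1.5-fold minimum. The difference was lost in 10 of 15 for KCTD2, 9 of 15 for KBTBD8, 8 of 15 for KLHL24 and KLHL42 and 8 of 14 for KLHL14. It was lost in 3 of 15 for KLHL5 and 1 of 15 for BTBD3, and in 0 for the other members.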

How the results depend on the processing

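No called difference of a member changed direction under any alternative that was run. Members that were not called were not followed gene by gene, apart from BTBD1 and KLHL24 with the PAXIP1-AS1 siRNA. Genes outside the family were not followed either, so the stability of their values is unknown. An added 1.5-fold minimum left 5 members with siRNA 1 (21 without it), 6 with siRNA 2 (27), 5 between siRNA 2 and siRNA 1 (32), 0 with the PAXIP1-AS1 siRNA (5) and 5 for the difference of effects (13), since it removes smaller changes by construction. With the fit restricted to the groups compared, 15 members were called with siRNA 2 (15.1% of all genes) and 0 with the PAXIP1-AS1 siRNA (0.983%). For PAXIP1-AS1, 12 were called with dim genes left out (19.5% of the genes kept), 11 with an intensity trend and robust prior (9.69% of all genes) and 8 with the replicate block (7.2% of all genes). The cause was not tested. In that comparison KLHL24 passed the threshold with a further quantile normalization (adjusted p = 0.0486), dim genes left out (0.0228), an intensity trend and robust prior (0.0143) and the replicate block (0.0449). BTBD1 did so under the same settings (0.0383, 0.00978, 0.00421 and 0.0436). Leaving out either 10 nM control array, which that comparison does not use, also took BTBD1 past the threshold.

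Leaving out each array in turn gave 16 to 22 calls with siRNA 1, 20 to 26 with siRNA 2, 23 to 32 between siRNA 2 and siRNA 1, 0 to 5 with PAXIP1-AS1, 0 to 0 between the controls and 7 to 10 for the difference of effects. The lone array left in a group was assumed to vary like the other groups. In every comparison with a LOC440173 or PAXIP1-AS1 siRNA, leaving out an array of that siRNA also lowered the share of all genes called. Leaving out other arrays did not always lower that share. Apart from the 1.5-fold minimum, calls held under every alternative for 14 of 21, 15 of 27, 22 of 32, 0 of 5 and 6 of 13 members in the order of these comparisons without that of the controls.

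Deviations of same-numbered arrays correlated at 0.08 for siRNA 1, 0.53 for siRNA 2, 0.09 between them, 0.29 for PAXIP1-AS1 and 0.45 for the controls. Over all 10 pairs of groups they ran from 0.07 to 0.53, all positive, with 6 over 0.1. The main fit did not pair the arrays, because no label states a shared batch. A shift common to same-numbered arrays therefore stays in its spread. With the replicate block, calls numbered 27, 28, 33, 8, 0 and 16 for siRNA 1, siRNA 2, siRNA 2 against siRNA 1, PAXIP1-AS1, the controls and the difference of effects, beside 36.6%, 34.4%, 42.3%, 7.2%, 0% and 16.4% of all genes. The fit with only the compared groups was not run for the last, which uses all groups. Leaving dim genes out gives no value for members below the median level. Signal over background was not available, so small changes of dim members such as KCTD16, KLHL2, KLHL14 and KLHL31 have an unknown share of background.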
